A study of Homo sapiens with 4 samples.

Results

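The genes described here are 41 genes whose RNA is made as cells pass from the G1 phase of the cell cycle into DNA replication, a widely used list for calling S phase in single cells. They were chosen by gene symbol alone, and all 41 were found among the 36602 genes measured. The cells were OVCAR5, a human ovarian carcinoma line, kept with supernatant from tumor cells grown together with T cells. The supernatant was given undiluted or diluted 5, 25, 125 or 625 times, or left out, for 2, 6, 12 or 24 h, which gives 24 conditions with 1 culture each. The cultures were pooled and sequenced together as single cells in droplets, from the 3′ ends of their RNA, and antibody-borne oligonucleotide tags, used in pairs, mark the culture of each cell. The labels do not say which tags went with which dose or time. Each of the 24 tag pairs is therefore named by its tags, and no level below is assigned to a dose or a time.

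Cells decide in G1 whether to divide. CDC6 and its partners load the ring-shaped MCM helicase onto replication origins, a step called licensing, and the E2F transcription factors switch on the genes for the replication machinery. During S phase the fork proteins copy the DNA, ribonucleotide reductase and thymidylate synthase supply its building blocks, and histone chaperones package the new strands.

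The filters kept 6408 of 10660 barcodes, and 5298 of the kept cells carried a clear tag pair. Summed per pair, the totals were between 1863154 and 3904112 unique molecular identifiers (UMIs, each 1 captured RNA molecule). Levels are given as CPM, UMIs per 1000000 UMIs of the pair, and 3 UMIs corresponded to at most 1.61 CPM. Reads came from the 3′ end of transcripts, so CPM does not scale with transcript length. Intervals in brackets are 95% intervals that cover counting error only. Where the highest and lowest pairs are compared, they were picked by their values. Intervals of such ratios and differences do not allow for that choice. With 1 culture for each condition, variation between cultures could not be measured and no test was made. Of 8 epithelial markers, the keratins KRT18, KRT8, KRT7 and KRT19 were at 1586, 701, 550.5 and 178 CPM in the pool, and CLDN4 and EPCAM at 83.0 and 47.4 CPM. CLDN7 was at 8.40 CPM, and CDH1, the adhesion protein E-cadherin, at only 2.33 CPM. Of 8 T cell markers, CD3E, CD3G, CD2, CD8B and PTPRC had 0 UMIs, CD8A had 20, CD3D had 4 and TRAC had 2.

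Replication genes were low in 2 of the 24 cultures and much alike in most of the others. The summed level of the 41 genes was highest in HTO2/HTO9 at 3203 CPM (3142 to 3265), had a median of 2899 CPM, and was lowest in HTO3/HTO9 at 1202 CPM (1160 to 1246), giving a ratio of 2.66 (2.56 to 2.78). HTO5/HTO8 was next lowest with 1356 CPM, followed by HTO6/HTO8 with 2269 CPM and HTO8/HTO10 with 2291 CPM. The other 20 pairs lay between 2605 and 3203 CPM. Without HTO3/HTO9 the ratio of highest to lowest was 2.36 (2.28 to 2.45), and without both HTO3/HTO9 and HTO5/HTO8 it was 1.41 (1.36 to 1.46). In these sums over cells, fewer cells in a phase and less RNA for each cell cannot be told apart.

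**Figure D1:**
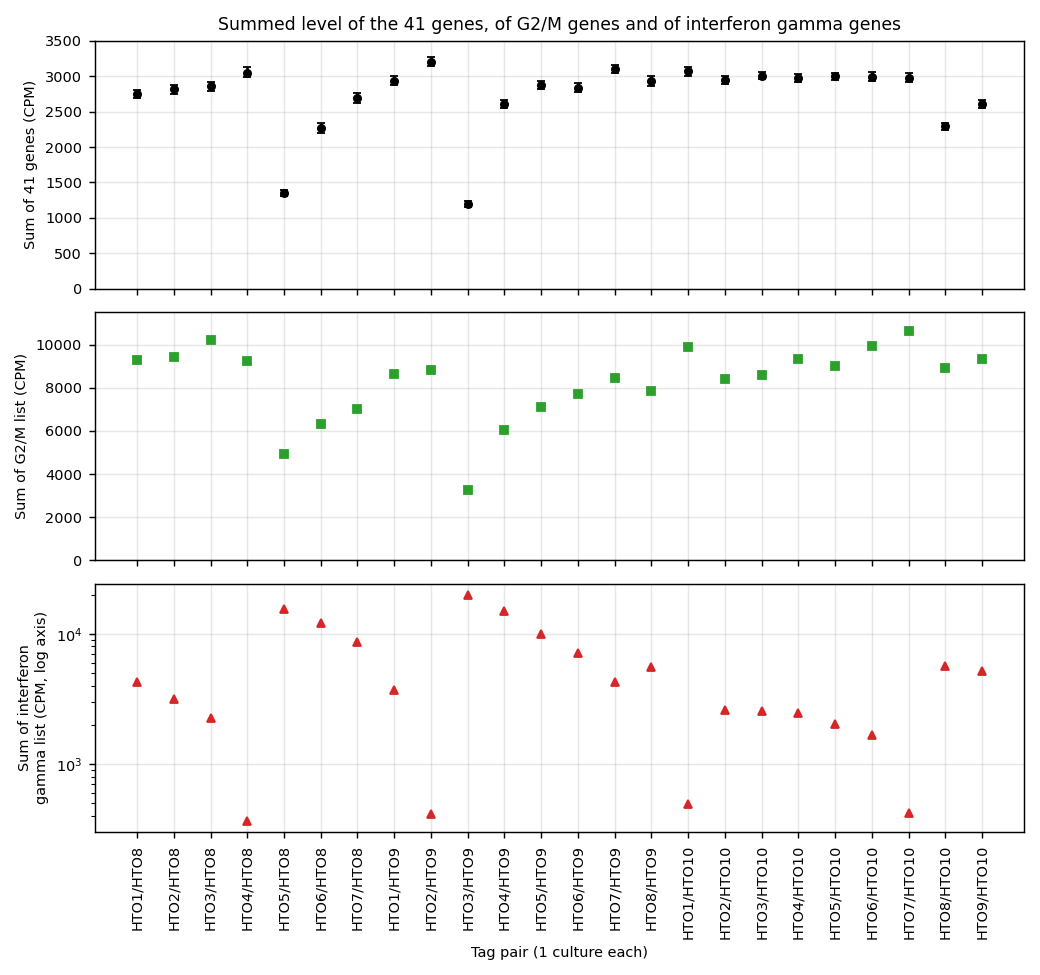
Summed CPM of the 41 genes with 95% counting intervals (top), of 54 G2/M phase genes (middle) and of 17 interferon gamma genes (bottom, log axis) in each of the 24 tag pairs. The 41 genes reach 3203 CPM in HTO2/HTO9 and only 1202 CPM in HTO3/HTO9 and 1356 CPM in HTO5/HTO8, the pairs with the highest interferon gamma sums.

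Of the 41 genes, 33 averaged 20 CPM or more, the level above which the range of a gene over the pairs was counted. The range is the highest minus the lowest value of log2(CPM + 10). It was 2-fold or more for 31 of the 33, while 26.1% of all 5767 genes at that level ranged as widely. RPA2 and NASP were the exceptions. Only RRM2 ranged by 4-fold or more, against 4.13% of all genes. The median range of the 33 was 1.35 on the log2 scale, and that of all genes 0.74. Without HTO3/HTO9, 25 of 34 ranged by 2-fold, with 20.2% of all genes. Without HTO3/HTO9 and HTO5/HTO8 it was 2 of 34, CDC6 and CDCA7, with 12.6% of all genes, and the median ranges were 0.74 for the members and 0.61 for all genes.

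The same 2 pairs held nearly all the lowest values. HTO3/HTO9 was the lowest pair for 24 of the 33 genes, where 28.2% of all genes were lowest. HTO5/HTO8 was lowest for 8 of the 33, and for 1012 of all 5767 genes. HTO8/HTO10 was lowest for CDCA7, and for 243 of all genes. Set against the median of the 24 pairs, 28 of 33 were 1.5-fold or more lower in HTO3/HTO9, with 16% of all genes, and 27 of 33 in HTO5/HTO8, with 13.6% of all genes. None of the 33 was 1.5-fold or more higher than its median in HTO3/HTO9, HTO5/HTO8, HTO6/HTO8 or HTO8/HTO10, where 7.92%, 5.06%, 3.07% and 2.6% of all genes were. The median difference was -0.998 on the log2 scale in HTO3/HTO9 and -0.87 in HTO5/HTO8, and for all genes it was -0.16 in both. HTO6/HTO8 had 1 of 33 lower by that much, CDC45, with 2.25% of all genes. HTO8/HTO10 had 2, CDC6 and CDCA7, with 1.63% of all genes. The median differences of the members in these pairs were -0.32 and -0.28, so the members there were lower by a smaller step spread over many genes.

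**Figure D2:**
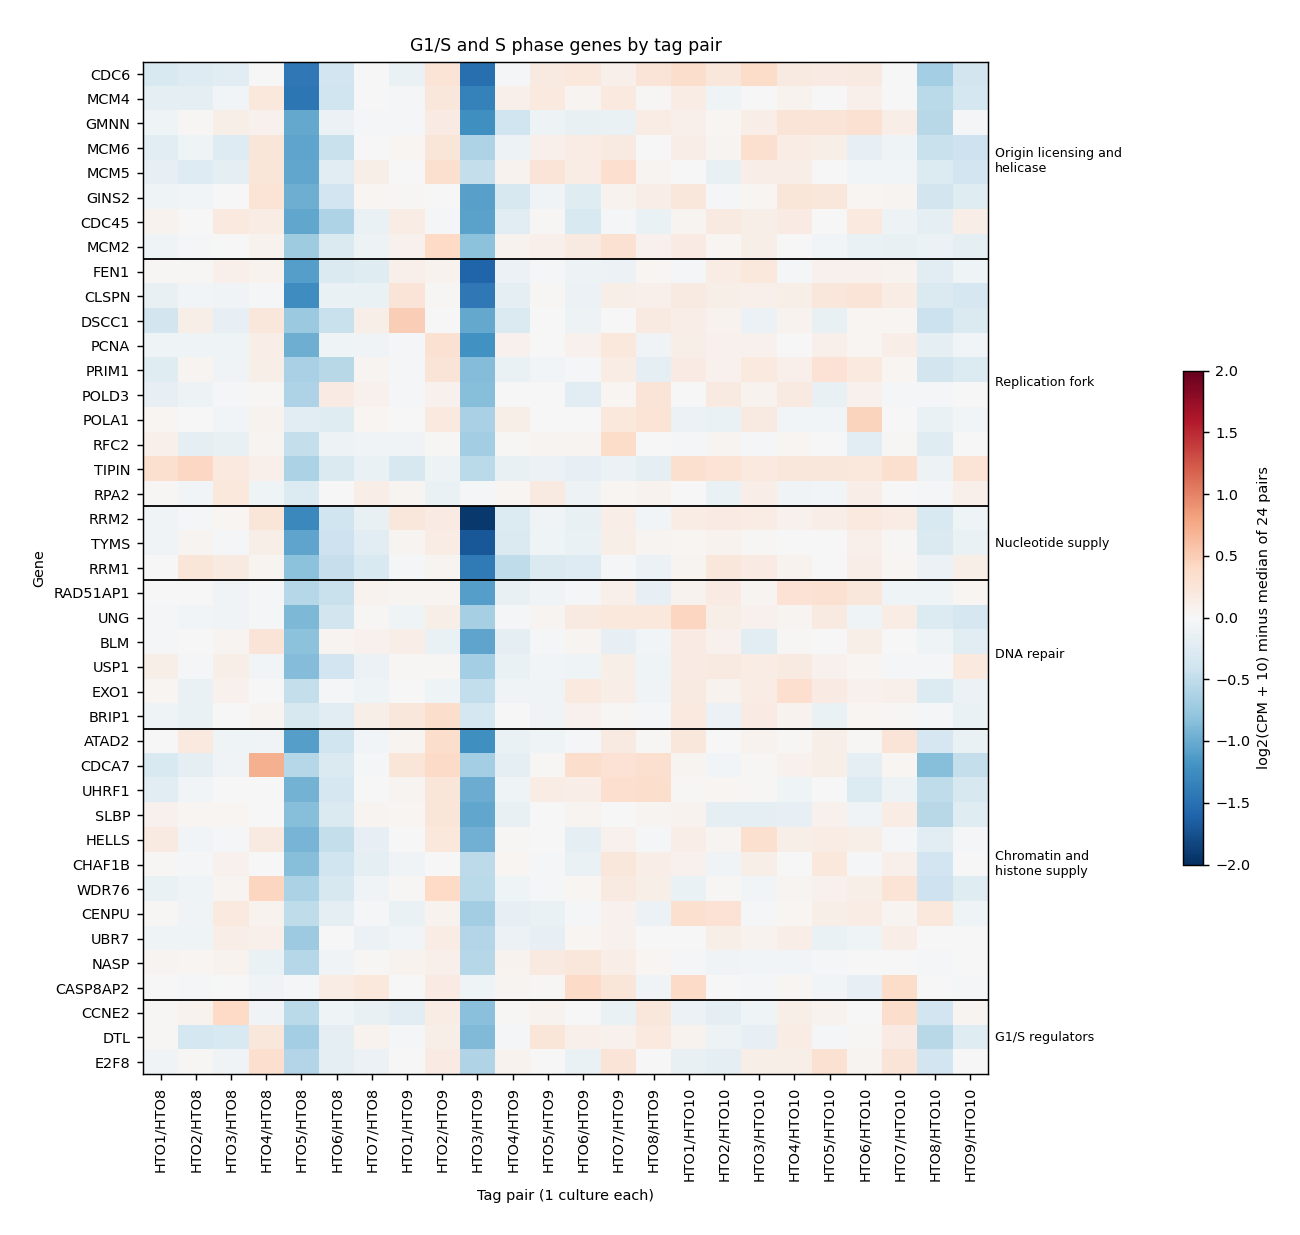
Each row is one of the 41 genes, grouped by role, and each column a tag pair. Colour is log2(CPM + 10) minus the gene's median over the 24 pairs, so blue is lower and red higher than the median. The columns of HTO3/HTO9 and HTO5/HTO8 are blue in almost every row, with RRM2 at -1.94 in HTO3/HTO9, while RPA2 and CASP8AP2 stay pale.

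Promoters of the members were searched for E2F and CCAAT motifs, which are well known in genes of this kind. Promoters of 32 of the 41 genes were found in the RefSeq table for GRCh38.p14, as the 250 bases before the transcription start. An E2F core was searched as TTCGCGC, in its variant TTGGCGC, in its variant TTCCCGC and in its variant TTGCCGC, on either strand. It was present in 17 of the 32 (53.1%), compared with 14.5% of 15843 promoters of protein-coding genes. At least 2 such cores were found in 6 of them (18.8%), compared with 1.99% of all. The CCAAT box, CCAAT on either strand, to which the factor NF-Y binds, was present in 22 (68.8%), compared with 34.5% of all. Both motifs were present in 14, and the share of all promoters with both was not counted. The 5 promoters below were picked among genes with an E2F core and a mean of 20 CPM or more. Their range was widest (TYMS, RRM1 and CDCA7) or narrowest (DTL and CENPU) of these. Capitals mark E2F cores and CCAAT boxes, as read on the gene's strand or as their reverse complement, and all run 5′ to 3′ on the strand of the gene. They lie at chr18:657403-657652 on the plus strand for TYMS, chr11:4094435-4094684 on the plus strand for RRM1, chr2:173354622-173354871 on the plus strand for CDCA7, chr1:212035498-212035747 on the plus strand for DTL and chr4:184734097-184734346 on the minus strand for CENPU.
TYMS: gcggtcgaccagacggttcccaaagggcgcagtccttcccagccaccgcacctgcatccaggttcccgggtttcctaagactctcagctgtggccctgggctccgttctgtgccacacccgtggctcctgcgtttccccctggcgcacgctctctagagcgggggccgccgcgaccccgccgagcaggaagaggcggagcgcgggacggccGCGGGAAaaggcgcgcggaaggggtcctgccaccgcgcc
RRM1: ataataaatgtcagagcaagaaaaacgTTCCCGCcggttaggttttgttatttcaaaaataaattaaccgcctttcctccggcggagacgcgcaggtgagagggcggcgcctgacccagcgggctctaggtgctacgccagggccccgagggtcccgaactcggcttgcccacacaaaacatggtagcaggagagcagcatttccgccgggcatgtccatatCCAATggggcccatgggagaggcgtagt
CDCA7: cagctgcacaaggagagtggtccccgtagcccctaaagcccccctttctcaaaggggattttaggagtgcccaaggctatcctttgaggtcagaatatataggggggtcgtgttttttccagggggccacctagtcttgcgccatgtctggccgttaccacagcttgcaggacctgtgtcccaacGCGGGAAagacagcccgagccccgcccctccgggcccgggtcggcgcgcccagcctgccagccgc
DTL: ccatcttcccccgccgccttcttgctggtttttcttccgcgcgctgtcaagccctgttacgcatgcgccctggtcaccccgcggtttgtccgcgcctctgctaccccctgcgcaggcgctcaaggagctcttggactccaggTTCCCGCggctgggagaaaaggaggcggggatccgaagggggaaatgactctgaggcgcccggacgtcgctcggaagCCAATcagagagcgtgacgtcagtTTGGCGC
CENPU: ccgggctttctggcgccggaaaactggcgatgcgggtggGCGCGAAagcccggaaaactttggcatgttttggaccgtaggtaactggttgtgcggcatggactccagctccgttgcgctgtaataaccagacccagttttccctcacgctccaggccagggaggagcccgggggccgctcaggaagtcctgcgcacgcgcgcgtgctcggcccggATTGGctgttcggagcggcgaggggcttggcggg
TYMS and CDCA7 held 1 E2F core and no CCAAT box, RRM1 and CENPU 1 of each, and DTL 2 cores and 1 box. The nearest core ended 33 bases before the start in TYMS, 217 in RRM1 and 205 in CENPU. RRM2 and CDC6, the genes of widest range, held no E2F core in this window and 3 CCAAT boxes each. In the GENCODE 29 annotation, however, RRM2 begins at 10120698 and CDC6 at 40287633. All of the RRM2 window, 10122489 to 10122738, and nearly all of the CDC6 window, 40287629 to 40287878, lie after those starts. The bases before those starts were thus hardly searched, or not at all. In the same annotation TYMS begins at 657604, DTL at 212035553, CDCA7 at 173354820 and CENPU at 184734133, inside the windows shown. The TYMS core and both DTL cores lie after that start, and the CDCA7 and CENPU cores before it. A match is a run of letters and shows no binding.

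The 8 origin licensing and helicase genes summed to 639 CPM in HTO2/HTO9, the highest pair, and to 196 CPM in HTO5/HTO8, the lowest, giving a ratio of 3.25 (2.96 to 3.59), with a median of 548 CPM. HTO3/HTO9 had 209 CPM. All 8 ranged by 2-fold or more, and the same 8 did so without HTO3/HTO9. CDC6, which loads the helicase onto origins, ranged most widely of them: it had 102 CPM in HTO3/HTO10, a median of 77.3 CPM, 22.4 CPM in HTO5/HTO8 and 20.7 CPM in HTO3/HTO9, giving a ratio of highest to lowest of 4.94 (3.69 to 6.73). The third lowest pair was HTO8/HTO10 with 44.5 CPM, so both low pairs were at or below 22.4 CPM and stood clear of the rest.

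MCM2, MCM4, MCM5 and MCM6 encode subunits of the helicase ring. MCM4 had 220 CPM in HTO2/HTO9, a median of 186 CPM, and 62.4 CPM in HTO5/HTO8 and 66.9 CPM in HTO3/HTO9. MCM5 had 51.7 CPM in HTO7/HTO9, a median of 39.0 CPM, 25.1 CPM in HTO3/HTO9 and 13.8 CPM in HTO5/HTO8. MCM6 had 56.6 CPM in HTO3/HTO10, a median of 43.4 CPM, 24.7 CPM in HTO3/HTO9 and 15.7 CPM in HTO5/HTO8. MCM5 and MCM6 differed between the 2 low pairs by more than counting error, with intervals that are not adjusted for the 41 genes looked at: their ratios of HTO3/HTO9 to HTO5/HTO8 were 1.81 (1.19 to 2.80) and 1.57 (1.05 to 2.39), while that of MCM4 was 1.07 (0.860 to 1.34). MCM2 was lowest in HTO3/HTO9 with 11.1 CPM and reached 38.9 CPM in HTO2/HTO9. CDC45 and GINS2 encode partners that turn the ring into an active helicase, and their ratios of highest to lowest were 3.28 (2.31 to 4.77) and 3.45 (2.45 to 4.93). GMNN encodes geminin, which stops origins from being licensed again after they have fired. It had 96.98 CPM in HTO6/HTO10 and 27.1 CPM in HTO3/HTO9, giving a ratio of 3.58 (2.74 to 4.74), and so was low in the same cultures as the genes of the step it blocks.

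The 10 replication fork genes summed to 619 CPM in HTO3/HTO10 and to 240 CPM in HTO3/HTO9, giving a ratio of 2.58 (2.36 to 2.82), with a median of 572 CPM. Of these genes 9 reached 20 CPM and 8 ranged by 2-fold or more, or 5 without HTO3/HTO9. FEN1, the nuclease that trims Okazaki fragments, had 154 CPM in HTO3/HTO10, a median of 131 CPM, 55.6 CPM in HTO5/HTO8 and 36.6 CPM in HTO3/HTO9. CLSPN encodes claspin, which holds the fork and the checkpoint kinase together, and had 96.0 CPM in HTO1/HTO9, a median of 78.3 CPM, 27.3 CPM in HTO5/HTO8 and 22.7 CPM in HTO3/HTO9. PCNA, the sliding clamp of the DNA polymerases, had 135 CPM in HTO2/HTO9, a median of 108 CPM, 50.04 CPM in HTO5/HTO8 and 41 CPM in HTO3/HTO9. In all 3 genes the 2 low pairs stood apart from the other pairs.

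The remaining fork genes ranged less or were thinly counted. RFC2, a subunit of the loader of PCNA, PRIM1, a subunit of primase, and POLD3, a subunit of polymerase delta, had ratios of highest to lowest of 2.48, 3.22 and 2.85. DSCC1, part of another clamp loader, had 35.7 CPM in HTO1/HTO9 against 5.97 CPM in HTO3/HTO9, giving a ratio of 5.98 (3.43 to 11.1). POLA1, the catalytic subunit of polymerase alpha, stayed below 20 CPM on average. TIPIN, a fork protection gene, had 60.3 CPM in HTO2/HTO8 and 24.3 CPM in HTO5/HTO8, and its level in HTO3/HTO9, 26.3 CPM, was near that of HTO1/HTO9, 32.4 CPM. RPA2, a subunit of the protein that coats single-stranded DNA, had the narrowest range of the 33: 56.9 CPM in HTO3/HTO8, a median of 47.8 CPM and 37.7 CPM in HTO5/HTO8, giving a ratio of 1.51 (1.17 to 1.96). In HTO3/HTO9 it had 46.97 CPM, 0.985 times its median.

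The 3 nucleotide supply genes summed to 645 CPM in HTO4/HTO8, against 158 CPM in HTO3/HTO9, giving a ratio of 4.07 (3.64 to 4.56), with a median of 599 CPM. HTO5/HTO8 had 260 CPM, and without HTO3/HTO9 the ratio was 2.48 (2.26 to 2.71). RRM2, the small subunit of ribonucleotide reductase that limits its activity to S phase, had 228 CPM in HTO4/HTO8, a median of 191 CPM, 72.1 CPM in HTO5/HTO8 and 42.6 CPM in HTO3/HTO9, giving a ratio of 5.34 (4.34 to 6.64). TYMS, thymidylate synthase, had 286 CPM in HTO2/HTO9, a median of 256 CPM, 117 CPM in HTO5/HTO8 and 72.4 CPM in HTO3/HTO9, giving a ratio of 3.95 (3.36 to 4.65). RRM1, the large reductase subunit, had 159 CPM in HTO2/HTO8, a median of 133 CPM, 70.95 CPM in HTO5/HTO8 and 43.4 CPM in HTO3/HTO9. All 3 were lowest in HTO3/HTO9 and second lowest in HTO5/HTO8. Their ratios of HTO3/HTO9 to HTO5/HTO8 were close to one another, 0.59 (0.46 to 0.75) for RRM2, 0.61 (0.48 to 0.78) for RRM1 and 0.62 (0.51 to 0.74) for TYMS.

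The 6 DNA repair genes summed to 237 CPM in HTO1/HTO10 and to 93.4 CPM in HTO5/HTO8, giving a ratio of 2.54 (2.198 to 2.94), with a median of 202 CPM and 94.7 CPM in HTO3/HTO9. USP1, a ubiquitin protease of the Fanconi anemia pathway, made up most of this sum, with 125 CPM in HTO9/HTO10, a median of 108 CPM, 63.7 CPM in HTO3/HTO9 and 54.5 CPM in HTO5/HTO8. UNG, which removes uracil from DNA, had 36.2 CPM in HTO1/HTO10 and 8.22 CPM in HTO5/HTO8. BLM, a helicase of recombination, had 35.7 CPM in HTO4/HTO8 against 8.36 CPM in HTO3/HTO9. RAD51AP1, an accessory factor of homologous recombination, had 34.3 CPM in HTO5/HTO10, 14.2 CPM in HTO5/HTO8 and 6.77 CPM in HTO3/HTO9. All 4 ranged by 2-fold or more. EXO1, a nuclease, and BRIP1, a helicase, averaged 7.43 and 5.20 CPM and were too thinly counted to be ranked.

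The 11 chromatin and histone supply genes summed to 1059 CPM in HTO2/HTO9 and to 484 CPM in HTO3/HTO9, giving a ratio of 2.19 (2.05 to 2.34), with a median of 908 CPM and 500.03 CPM in HTO5/HTO8. NASP, a chaperone of histones H3 and H4, had the highest mean of the 41 genes, 350 CPM, and ranged little: 418 CPM in HTO6/HTO9, a median of 354 CPM, and 235 CPM in each of HTO3/HTO9 and HTO5/HTO8, giving a ratio of 1.78 (1.61 to 1.97). ATAD2, a chromatin ATPase, had 199.9 CPM in HTO2/HTO9, a median of 154 CPM, 66.5 CPM in HTO5/HTO8 and 60.1 CPM in HTO3/HTO9. SLBP, which binds the stem-loop of histone mRNA, had 125 CPM in HTO2/HTO9 and 45.4 CPM in HTO3/HTO9. UHRF1 and HELLS, which keep DNA methylation through replication, had ratios of 3.51 (2.45 to 5.11) and 2.80 (2.24 to 3.53).

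CDCA7, a partner of HELLS, was the only one of the 33 genes with its lowest level outside HTO3/HTO9 and HTO5/HTO8. It had 115 CPM in HTO4/HTO8, a median of 66.4 CPM and 32.3 CPM in HTO8/HTO10, giving a ratio of 3.58 (2.88 to 4.47). HTO3/HTO9 and HTO5/HTO8 followed closely with 37.8 and 41.5 CPM, so it was low in these pairs too. Its highest pair stood above the next, HTO2/HTO9, which had 89.7 CPM. WDR76 and CENPU had ratios of 3.07 (2.001 to 4.84) and 2.94 (1.93 to 4.63). CENPU encodes a centromere protein. CHAF1B, a subunit of the chromatin assembly factor, UBR7 and CASP8AP2, which takes part in histone gene expression, averaged 13.4, 19.96 and 12.1 CPM. CASP8AP2 was lowest in HTO6/HTO10 with 8.88 CPM and had 9.95 CPM in HTO3/HTO9, so it was not set apart in the low pairs.

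The 3 regulators of the G1/S step were thinly counted. Their sum was 63.9 CPM in HTO7/HTO10 and 15.9 CPM in HTO3/HTO9, giving a ratio of 4.01 (2.84 to 5.80), with a median of 48.7 CPM. DTL, which targets licensing factors for destruction in S phase, had 35.1 CPM in HTO5/HTO9 and 10.7 CPM in HTO3/HTO9. CCNE2, a cyclin of the G1/S switch, averaged 10.2 CPM and E2F8, a repressor of the E2F family, 10.4 CPM. HTO8/HTO10 had a regulator sum of 27.7 CPM, the third lowest, after HTO3/HTO9 and after HTO5/HTO8 with 21.7 CPM.

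Licensing was set against nucleotide supply as the log2 ratio of their sums. It was highest in HTO3/HTO9 at 0.40 and lowest in HTO5/HTO8 at -0.41, a difference of 0.81 (0.56 to 1.06). With a tag margin of 5 times in place of 3, the lowest was HTO8/HTO10 and the difference 0.77 (0.55 to 0.996). In HTO3/HTO9 nucleotide supply was at 0.264 times its median over the pairs and licensing at 0.382 times. In HTO5/HTO8 nucleotide supply was at 0.434 times and licensing at 0.359 times. Between them lay HTO4/HTO9, second highest at 0.19, and HTO8/HTO10, second lowest at -0.36. Without both low pairs the difference between the highest and the lowest was 0.55. Licensing against repair was highest in HTO2/HTO9 at 1.64 and lowest in HTO8/HTO10 at 1.05, a difference of 0.59 (0.41 to 0.77), with HTO5/HTO8 at 1.07 and HTO3/HTO9 at 1.14. For HTO8/HTO10 this went with licensing at 0.687 times its median and repair at 0.904 times.

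**Figure D3:**
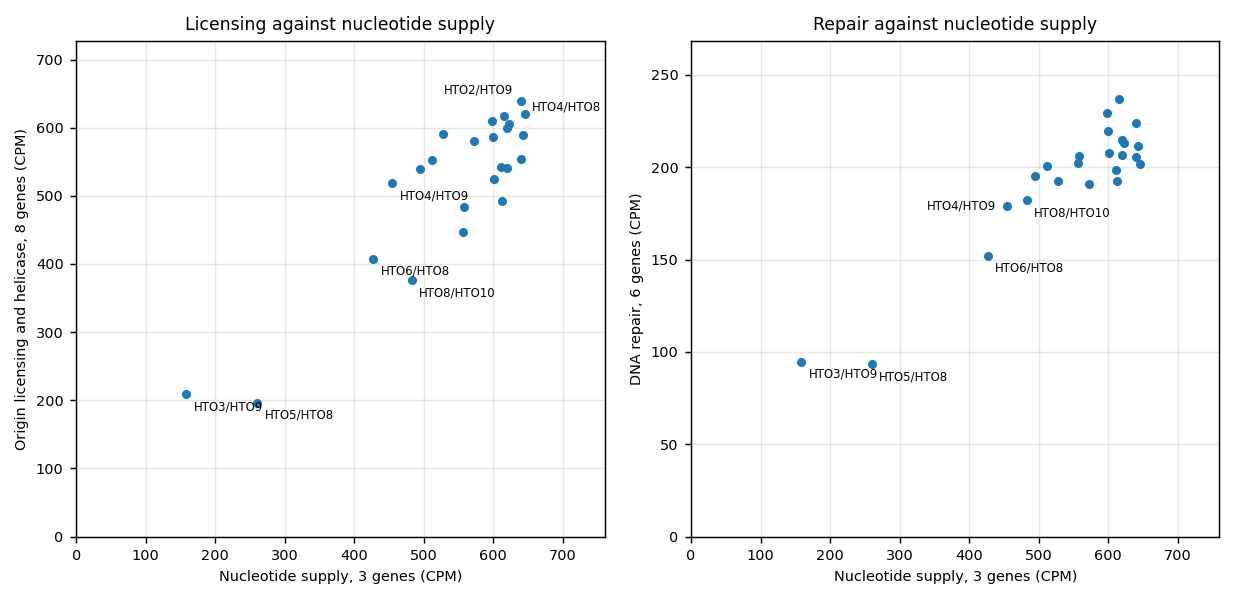
Summed CPM of the licensing genes (left) and of the repair genes (right) on the vertical axis against the nucleotide supply genes on the horizontal axis, 1 point for each of the 24 tag pairs. HTO3/HTO9 lies left of HTO5/HTO8 at 158 and 260 CPM of nucleotide supply, at nearly equal licensing sums of 209 and 196 CPM, and HTO8/HTO10 lies low in licensing at 377 CPM.

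Other genes of the same processes, from lists that hold none of the 41, were examined next. Of the other licensing genes 9 of 13 at 20 CPM or more ranged by 2-fold, of other fork genes 7 of 16, of other nucleotide genes 11 of 19, of other chromatin genes 5 of 11, of other repair genes 5 of 5, and of cyclins, cyclin-dependent kinases and E2F factors 5 of 13. The share of all genes was 26.1%. Without HTO3/HTO9 the counts were 6 of 13, 4 of 16, 8 of 19, 3 of 11, 2 of 6 and 4 of 14 in the same order, with 20.2% of all genes. MCM3 and MCM7, further subunits of the helicase ring, had 165 CPM in HTO8/HTO9 and 52.1 CPM in HTO3/HTO9, and 126 CPM in HTO5/HTO10 and 39.4 CPM in HTO3/HTO9. DTYMK, thymidylate kinase, had 338 CPM in HTO4/HTO8 against 113 CPM in HTO3/HTO9. CHEK1, the checkpoint kinase that acts with claspin, had 70.7 CPM in HTO2/HTO9 and 19.5 CPM in HTO3/HTO9. Each was lowest in the pair where most of the 41 genes were lowest.

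Some genes of these processes went the other way. POLD4, the smallest subunit of polymerase delta, had 207 CPM in HTO3/HTO9 and 50.1 CPM in HTO2/HTO8, giving a ratio of 4.13 (3.44 to 4.98). MTHFD2, a mitochondrial enzyme of folate metabolism, had 308 CPM in HTO3/HTO9 and 104 CPM in HTO2/HTO9. SAMHD1, which breaks down deoxynucleotides and is known as an interferon-responsive gene, had 82.1 CPM in HTO6/HTO8, 67.3 CPM in HTO3/HTO9 and 6.74 CPM in HTO1/HTO10, giving a ratio of highest to lowest of 12.2 (7.77 to 19.95). CCND1, the cyclin of early G1, had 698 CPM in HTO1/HTO10, a median of 554 CPM and 415 CPM in HTO2/HTO9. With 550.5 CPM it was near its median in HTO3/HTO9, and with 484 CPM somewhat below it in HTO5/HTO8. It thus did not fall there as the replication genes did. The cyclin of S phase and G2, CCNA2, had 104 CPM in HTO7/HTO10 and 15.5 CPM in HTO3/HTO9, giving a ratio of 6.71 (4.80 to 9.63).

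The low pairs differed from the rest in other measures too, so low levels there were not particular to the 41 genes. The 54 G2/M genes summed to 3245 CPM in HTO3/HTO9 and 4930 CPM in HTO5/HTO8, the lowest sums, against a median of 8738 CPM. Their ratio of highest to lowest was 3.27 (3.19 to 3.35). HTO3/HTO9 was lowest for 52 of the 54, and for 28.2% of all genes. HTO3/HTO9 and HTO5/HTO8 had the highest median mitochondrial shares, 13.8% and 12.8%, the lowest median depths, 9389 and 10714 UMIs per cell, and the lowest sums of 8 epithelial markers, 1907 and 2173 CPM. Their interferon gamma sums, 19871 and 15640 CPM, were the highest. A list of 12 inhibitor genes, most of which hold back the cell cycle, summed to 1169 CPM in HTO3/HTO9 and 661 CPM in HTO5/HTO8. The median was 340 CPM. BTG1 and GADD45A made up most of the HTO3/HTO9 sum, and some thinly counted genes of the list were at or below their medians there. BTG1, an antiproliferative gene, had 686 CPM in HTO3/HTO9 and 70.2 CPM in HTO7/HTO10, and GADD45A, a stress-induced gene, 307 CPM in HTO3/HTO9 and 57.5 CPM in HTO7/HTO9. CDKN1A, the inhibitor p21, had 69.3 CPM in HTO8/HTO10, 68.1 CPM in HTO3/HTO9 and 5.21 CPM in HTO7/HTO10.

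Among the other pairs, lower sums of the 41 genes often went with higher interferon gamma sums, but not in the same order. HTO4/HTO9 had an interferon gamma sum of 14937 CPM with 2611 CPM of the 41 genes, and HTO6/HTO8 had 12156 CPM with 2269 CPM. HTO8/HTO10, with nearly the same member sum as HTO6/HTO8, had 5702 CPM. HTO2/HTO10 had 601 CPM of the inhibitor genes with 2946 CPM of the 41 genes. The part of interferon genes, mitochondrial share, depth or inhibitors in the low levels was not tested. With interferon gamma, NF-κB and mitochondrial genes taken out of the totals, the ratio of highest to lowest member sum was 2.49.

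Cells were next called by phase. Each cell was thinned to 3000 UMIs, which left out 37 shallower cells of 5298, and scored for the 41 genes and for 54 G2/M genes against random control genes. A cell was called S or G2/M by the higher of its scores and G1 where neither was above 0. A thinned cell held a median of 7 UMIs of the 41 genes, so calls of single cells are rough, and free RNA shared by the pool also enters them, a part that was not tested. In all, 28.0% (26.8 to 29.2) of 5261 cells were called S, 54.4% G2/M and 17.7% G1. As the share uses the same genes as the sums above, it is a second view of them and no independent measure, and phase calls alone do not show that cells were cycling.

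The S called share was highest in HTO4/HTO9 at 37.9% (31.6 to 44.5) and lowest in HTO5/HTO8 at 9.01% (5.67 to 13.4) and HTO3/HTO9 at 12.2% (8.38 to 16.9), with a median over the pairs of 30.3%. The third lowest was HTO8/HTO10 at 21.1% (16.3 to 26.5), so the interval of HTO5/HTO8 lay below it and that of HTO3/HTO9 overlapped it slightly. Without thinning these shares were 36.8% in HTO4/HTO9, 9.36% in HTO5/HTO8 and 11.4% in HTO3/HTO9. G1 called cells made up 74.8% (68.9 to 80.1) of HTO3/HTO9 and 62.7% (56.1 to 68.9) of HTO5/HTO8, followed by 39.9% in HTO6/HTO8 and 29.96% in HTO4/HTO9, and 3.47% in HTO7/HTO10. HTO4/HTO9 combined the highest S called share with a G2/M called share of 32.2%, the third lowest after 13.01% in HTO3/HTO9 and 28.3% in HTO5/HTO8. HTO8/HTO10 showed the other order, with 21.1% S called and 65.5% G2/M called cells.

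**Figure D4:**
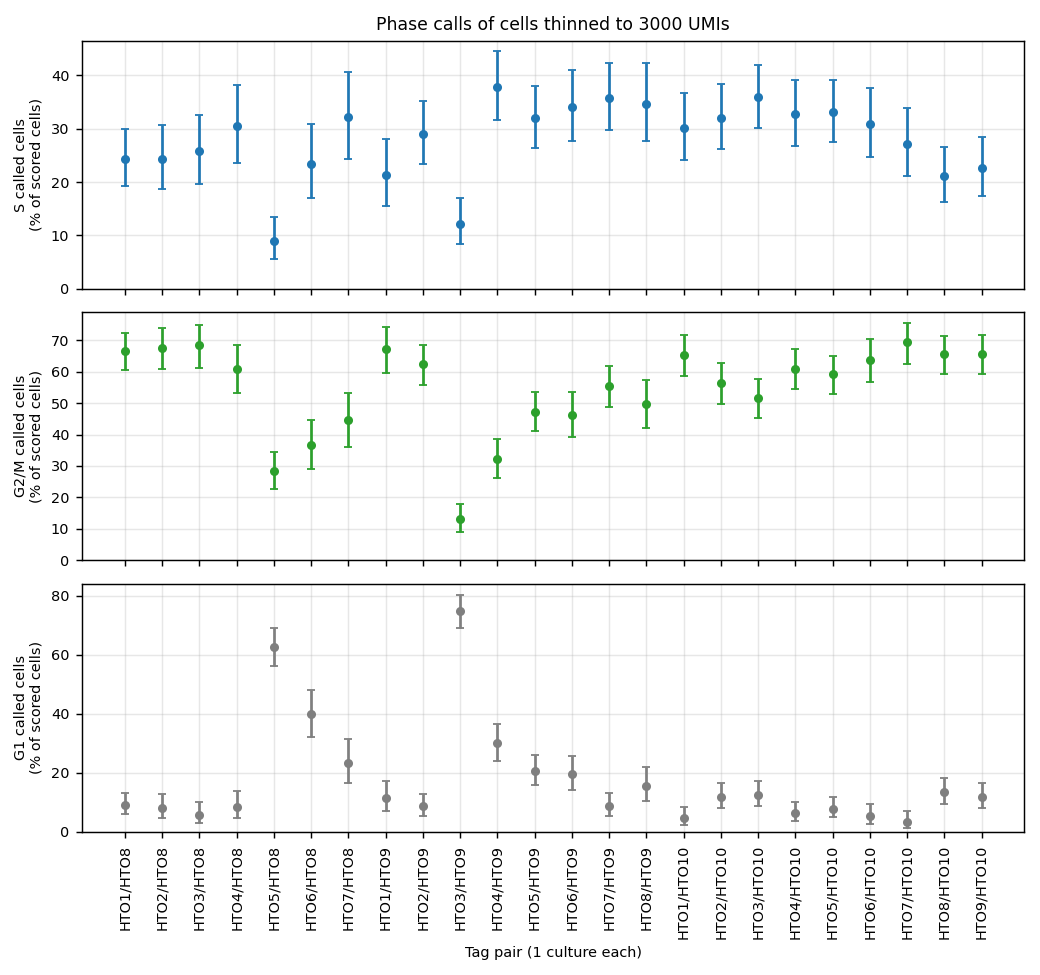
Share of cells called S (top), G2/M (middle) and G1 (bottom) in each of the 24 tag pairs, with exact binomial 95% intervals, after thinning to 3000 UMIs. S called cells are fewest in HTO5/HTO8 at 9.01% and HTO3/HTO9 at 12.2%, where G1 called cells reach 62.7% and 74.8%.

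The share depended on the random draws and on the rule. It was 20.3% of all cells with another draw of both the thinning and the control genes, and 40.8% with a rule on summed UMIs. HTO5/HTO8 was lowest and HTO3/HTO9 second lowest under each of the 6 alternatives run, HTO5/HTO8 between 5.15% and 12.0% and HTO3/HTO9 between 5.69% and 20%. The 20% came from only 30 cells, those with 2000 or more genes and at most 10% mitochondrial UMIs. With those stricter cells the third lowest pair, HTO1/HTO9, had 21.5%, so HTO3/HTO9 did not stand apart there. The pair with the highest share changed between alternatives.

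To read a gene in cells called without it, the calls were repeated 6 times, each time leaving out the role group of the gene that was read, and levels were read from all UMIs of the cells. The level of each of the 41 genes, as the mean over pairs, was then higher in S called cells than in G2/M called and G1 called cells. Against G2/M called cells the margin was small for some genes. RPA2 and RAD51AP1 were higher in S called cells in only 14 of the 24 pairs, and RRM1 in 17. Within pairs, S called cells were above G1 called cells in 20 or more of the 24 pairs for 35 of the 41 genes, and in all 24 pairs for 10. The fewest was 14 pairs, for CASP8AP2. Of the 33 genes at 20 CPM or more, 15 had a median ratio over pairs of 1.5-fold or more, on the scale of CPM + 10. Among 5680 genes at 20 CPM or more outside both scoring lists, 1.18% reached that ratio and 0.44% were higher in all 24 pairs. Those genes were read with calls made from all 41 members, with no group left out. Their share at 20 or more pairs was not counted, nor their share with the highest mean in S called cells. The 10 members higher in all 24 pairs were all among the 33. The calls for the members come from the same cells and the remaining members, so they describe how far the genes go together from cell to cell.

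Over the pairs, the median ratio of S called to G1 called cells was 1.69 for licensing, 1.59 for nucleotide supply, 1.55 for repair and for the fork, and 1.43 for chromatin. It was 2.56 for the thinly counted regulators, which were lower in S called than in G1 called cells in HTO8/HTO9, at 0.926 times. RRM2 had the largest median ratio of S called to G1 called cells, 1.87-fold, with mean levels of 229 CPM in S called, 186 CPM in G2/M called and 126 CPM in G1 called cells. CDC6 followed with 1.79-fold and means of 136, 46.7 and 71.9 CPM in the same order. UNG had means of 52.2 CPM in S called, 14.7 CPM in G2/M called and 29.3 CPM in G1 called cells. As means over pairs, licensing genes and UNG were thus lowest in G2/M called cells, while RRM2, RRM1 and TYMS were lowest in G1 called cells. RRM1 had 143, 131 and 94.1 CPM, and TYMS 276, 243 and 193 CPM, in S, G2/M and G1 called cells. GMNN and CDC45, of the licensing group, were exceptions, with 67.9 and 36.9 CPM in G2/M called and 63.8 and 32.3 CPM in G1 called cells. Within pairs, the licensing sum went the other way most clearly in HTO3/HTO9 and HTO5/HTO8. There it was 112 CPM in G1 called cells of each, and 197 and 219 CPM in G2/M called cells.

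The low pairs were also read within each called phase. Licensing genes had 676 CPM in HTO3/HTO9 and 532 CPM in HTO5/HTO8 in S called cells, against a median over pairs of 858 CPM. In G1 called cells they had 112 CPM in each, against a median of 516 CPM. Nucleotide supply genes had 426 CPM in HTO3/HTO9 and 496 CPM in HTO5/HTO8 in S called cells, against a median of 669 CPM, and 74.6 and 138 CPM in G1 called cells, against a median of 443 CPM. Chromatin genes had 1229 and 1141 CPM in S called cells of these pairs, against a median of 1280 CPM. Repair genes had 256 CPM in HTO3/HTO9 and 149 CPM in HTO5/HTO8 in S called cells, against a median of 278 CPM, and 54.4 and 66.2 CPM in G1 called cells, against a median of 181 CPM. The S called levels of these pairs rest on few cells, 32 and 27 for licensing, 29 and 17 for nucleotide supply, 13 and 12 for chromatin and 19 and 10 for repair, and are imprecise. The ratio of S called to G1 called cells was highest in HTO3/HTO9 for all 6 groups, 6.01 for licensing against a median of 1.69, and 5.71 for nucleotide supply against 1.59. G1 called cells numbered as few as 7, in HTO7/HTO10, so their levels there are imprecise.

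**Figure D5:**
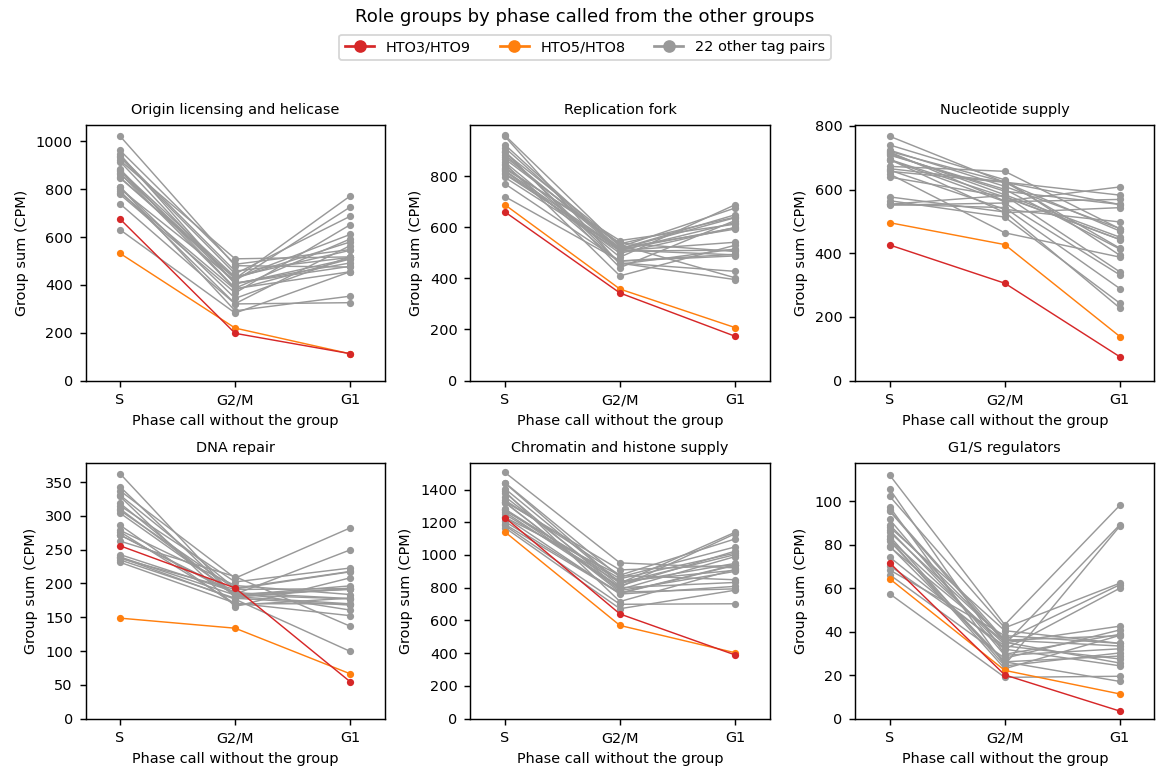
Summed CPM of each role group in S called, G2/M called and G1 called cells, with calls made without that group, 1 line for each tag pair. HTO3/HTO9 (red) and HTO5/HTO8 (orange) fall to 112 CPM of licensing genes in G1 called cells, where the median of the 24 pairs is 516 CPM.

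Among 3002 genes outside the list with a mean of 50 CPM or more, the genes whose levels over the 24 pairs were nearest to the summed members were CHEK1, MCM7, PGP, CACYBP, HMGN2, SIVA1, HSPE1, TMPO, CDCA4 and HSPD1. Likeness was the mean absolute difference of the centred log2 levels, which was between 0.078 and 0.093 for these 10 and had a median of 0.21 over the 3002. CHEK1 and MCM7 are replication genes, and HSPE1 and HSPD1 encode the mitochondrial chaperonin. HSPD1 had 1966 CPM in HTO1/HTO10 and 773 CPM in HTO3/HTO9, and HSPE1 1542 CPM in HTO5/HTO10 and 555 CPM in HTO3/HTO9.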

How the data were processed

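RNA of 1 pool of OVCAR5 cultures was counted by the authors as UMI counts for each gene and cell barcode, using Cell Ranger 5.0.1 (per the file headers; the submitters' processing notes give 2.1.1, and GRCh38). The annotation used and the cell calling settings were not given in the sources. From the deposited counts, barcodes that had 1000 or more genes and no more than 20% mitochondrial UMIs were kept, and a tag pair was taken as the top tags where the second was 3 or more times the next. Pairs topping 100 or more barcodes were in use. Cells with no clear pair were scored for phase with the rest (6314 scored, 5261 of them with a pair) and otherwise entered only the closing section. Doublets were not removed. All barcodes carry 1 suffix, so barcodes shared by the 2 expression libraries could not be counted. Counts were summed by pair and scaled to CPM with Python 3.11.15, and intervals (scipy 1.17.1) are exact Poisson, conditional binomial for ratios and exact binomial for shares. Intervals of differences between log2 ratios use the counts' normal approximation. Phases were called with scanpy 1.11.5 after thinning to 3000 UMIs. The steps were tested on simulated data. All 41 members may be named, with, in each further list, the 3 genes of highest mean and the 3 of widest range, and the 10 nearest in likeness. The members, lists and settings were chosen with earlier results of these data known. Promoters came from RefSeq. Alternatives were other pseudocounts, filters, tag margins, totals, thinning and left-out pairs.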

Additional observations from a re-analysis of the deposited data

Results flagged for a closer look

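Cells outside the comparison by tag pair also held RNA of the 41 genes. The 1110 kept cells with no clear tag pair had a summed level of 2556 CPM (2534 to 2578), and the cells with a pair 2748 CPM (2736 to 2760). The 4252 barcodes that the filters left out had 1602 CPM (1579 to 1625), at a median of 2172 UMIs. No control samples exist for these groups of barcodes, and both sums lie far above the level of 3 UMIs.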

How the results depend on the processing

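No paired analysis was possible because the cultures carry no replicate numbers. The members with a 2-fold range, 31 of 33, numbered 10 of 33 with a pseudocount of 50 CPM, 14 of 15 at a mean of 50 CPM or more, and 2 of 34 without HTO3/HTO9 and HTO5/HTO8. The ratio of highest to lowest sum, 2.66, was 2.16 with cells of 2000 or more genes and at most 10% mitochondrial UMIs, 2.44 with median-of-ratios size factors, 2.36 without HTO3/HTO9, 1.41 without both pairs and 2.49 with interferon gamma, NF-κB and mitochondrial genes outside the totals. The range of licensing against nucleotide supply, 0.81 on the log2 scale, was 1.26 with the stricter cells and 0.55 without both pairs, and that of licensing against repair, 0.59, was 0.94 with the stricter cells. The S called share of all cells, 28.0%, was 24.96% at 6000 UMIs, 29.4% without thinning, 20.3% with another random draw and 40.8% with the summed rule. The highest pair's share, 37.9%, was 29.2% with another draw, 52.7% with the summed rule and 47.7% with the stricter cells, and the lowest pair's share, 9.01%, was 5.15% with another draw. The cause of these shifts was not tested, except that fewer genes or pairs enter where some are left out. The stricter cells left 30 cells in HTO3/HTO9 and 43 in HTO5/HTO8. Depth limits the genes below 20 CPM.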

Other observations

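Cells rich in RNA of the keratin gene KRT81 formed a small share of the pool. The 212 kept cells with 10 or more KRT81 UMIs had 2884 CPM (2834 to 2935) of the 41 genes, and the other 6196 kept cells 2697 CPM (2687 to 2708). Members differed in direction between them, and those named here were chosen after their values were seen, as was CDKN2A. POLA1 had 30.1 CPM in the KRT81 cells and 10.9 CPM in the others, UNG 53.7 and 22.02 CPM, BRIP1 21.8 and 4.56 CPM, and ATAD2 224 and 144 CPM. MCM4 had 109 CPM in the KRT81 cells and 173 CPM in the others, CDC6 48.9 and 75.2 CPM, and TYMS 171 and 241 CPM. CDKN2A, which encodes the inhibitor p16, had 70.9 CPM in the KRT81 cells and 0.258 CPM in the others. Among cells with a tag pair, 35.9% (27.7 to 44.9) of 128 KRT81 cells and 27.8% (26.5 to 29.01) of 5133 others were called S, at median depths of 17990.5 and 13192 UMIs before thinning. KRT81 cells were at most 4.12% of a tag pair, and 0.407% of HTO3/HTO9 and 0.851% of HTO5/HTO8.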
